A study of Homo sapiens with 4 samples.

Results

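Matrix metalloproteinases (MMPs), ADAMTS proteases and their tissue inhibitors (TIMPs) were compared between 3 capmatinib-resistant lung cancer lines and the line they came from. The genes were taken by symbol from the deposited tables: every MMP or ADAMTS symbol with a number, and the 4 TIMP symbols. This gave 47 of the 26364 symbols listed, namely 24 MMP, 19 ADAMTS and 4 TIMP genes. Of these, 24 reached a deposited log2 level of 3.32, or 8.99 normalized units, in at least 1 library: 11 MMP, 10 ADAMTS and 3 TIMP genes. The same floor was met by 14892 of all symbols. Among the genes at the floor, MMP16 had the lowest maximum, at 3.61, and the highest gene left out was MMP25, at 3.29, followed by MMP20 and MMP23B at 2.91. Listed at 0 in all 4 libraries were 9 genes, MMP1, MMP12, MMP26, MMP27, ADAMTS2, ADAMTS4, ADAMTS5, ADAMTS14 and TIMP4. The other 14 left out were above 0 somewhere, namely MMP2, MMP3, MMP8, MMP10, MMP13, MMP20, MMP21, MMP23B, MMP25, ADAMTS8, ADAMTS12, ADAMTS18, ADAMTS19 and ADAMTS20.

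MMPs are zinc-dependent enzymes that cleave collagens, laminins and other proteins of the extracellular matrix, and also free growth factors and receptors from cell surfaces. Most are secreted as inactive precursors, while the membrane-type MMPs stay anchored to the cell. ADAMTS enzymes are secreted relatives that cut proteoglycans, trim procollagens or act on fibrillin networks and clotting factors. TIMPs bind the active sites of MMPs and block them, and TIMP3 also inhibits ADAMTS enzymes. In carcinomas much of the MMP protein comes from surrounding stromal cells, which a culture of tumour cells lacks.

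The cultures were EBC-CR1, EBC-CR2 and EBC-CR3, selected by stepwise exposure to capmatinib, a MET kinase inhibitor, and their parent EBC-1, a human lung squamous cancer line known for amplification of MET. The selection ended at 1.5 µmol/L for EBC-CR1, 2.2 µmol/L for EBC-CR2 and 2.4 µmol/L for EBC-CR3, and the resistant lines were then held in 1 µmol/L. Passages were 64 to 66 for EBC-CR1, 81 to 83 for both EBC-CR2 and EBC-CR3, and 35 to 37 for EBC-1, so the effects of resistance, drug and passage cannot be told apart. Each culture gave 1 library of RNA 3′ ends, whose values are not divided by transcript length, since each transcript is read at its end only. The sources used here do not say whether the lines are clones or whether drug was present at RNA extraction.

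Estimated depth was 21.5 to 27.8 M reads in the resistant lines and 29.8 M in EBC-1. Column headers in the files of EBC-CR1 and EBC-CR3 carry each other's number. The sample labels are followed here, and were the headers right, all values of these lines would have to be exchanged. Epithelial genes were abundant, with CDH1, KRT8, KRT18 and EPCAM at log2 levels of 10.41 or more in every library. CDH1 was at 14.28, 13.98 and 14.47 in the resistant lines and 13.47 in EBC-1, while KRT8 was lower in all 3, at 13.50, 13.90 and 13.46 in the resistant lines and 15.01 in EBC-1. EPCAM and KRT18 were also below EBC-1 in each line, by less than 2-fold. The squamous keratins KRT5, KRT6A and KRT14 were listed at 0 in all 4 libraries. KRT17, on the same list, was at 3.61 in EBC-CR1 and 6.22 in EBC-CR2, with a listing of 0 in EBC-CR3 and EBC-1. TP63, a squamous transcription factor gene, was at 6.65, 11.32 and 8.43 in the resistant lines and listed at 0 in EBC-1. SOX2, also on the list, was at 9.33, 9.25 and 10.85 in the resistant lines and 6.45 in EBC-1, and DSG3 stayed at 0.81 or below. Of 9 leukocyte markers none reached the floor, with summed values of 7.25 to 14.25 units in the resistant lines and 8.75 in EBC-1. Of 9 fibroblast markers only COL1A1 did, the list's sum was 87.25 to 155.75 units in the resistant lines and 46.25 in EBC-1, and DCN, LUM, THY1 and FAP were listed at 0 throughout. Of 5 endothelial markers none reached the floor. What part the fibroblast markers have in the results below was not tested.

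With 1 library per line, a pair of libraries was compared as the difference of deposited log2(x + 1) values, called at 2-fold and with no replicate check or p-value. In EBC-CR1, 12 of the 24 genes were at least 2-fold higher than in EBC-1 and 5 lower, where 28.3% of all genes at the floor were called (13.8% higher, 14.5% lower). In EBC-CR2, 13 were higher and 4 lower, against a background of 35.5% (16.8% higher, 18.6% lower). In EBC-CR3, 13 were higher and 4 lower, against 32.8% (16.2% higher, 16.6% lower). A gene can meet the floor only through the group where it is high, so these counts are a description. Of the 16 genes whose mean over the 4 libraries met the floor, 11, 10 and 12 were called in lines EBC-CR1, EBC-CR2 and EBC-CR3, beside 23.5%, 31.6% and 28.3% of all genes chosen in that way. The 3 comparisons share the EBC-1 library. Below, 3 values for the resistant lines follow the order EBC-CR1, EBC-CR2, EBC-CR3.

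**Figure D1:**
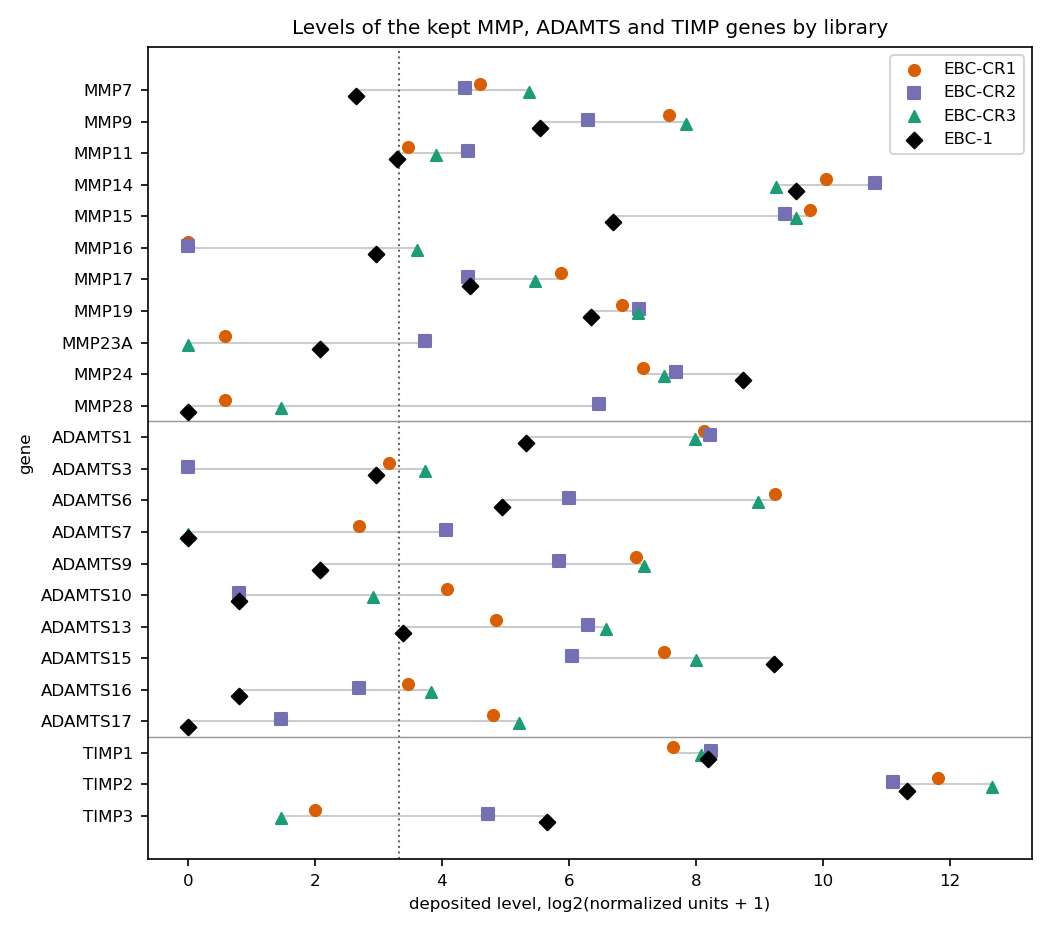
Deposited log2 level (x axis) of the 24 genes (y axis) in EBC-CR1, EBC-CR2, EBC-CR3 and EBC-1, with 1 symbol per library, offset vertically for legibility, and the floor of 3.32 as a dotted line. EBC-1 lies left of all resistant lines for genes such as MMP7, MMP15, ADAMTS1 and ADAMTS9, and right of them for MMP24, ADAMTS15 and TIMP3.

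At least 2-fold higher in all 3 resistant lines were 8 genes: MMP7, MMP15, ADAMTS1, ADAMTS6, ADAMTS9, ADAMTS13, ADAMTS16 and ADAMTS17. For all genes at the floor this share was 6.79%. As a gene can meet the floor only through the lines where it is high, the count is a description. With the floor set on the mean, 6 of 16 genes were higher in all 3 lines, without ADAMTS16 and ADAMTS17, and no share of all genes was computed for that count. Of the 8, ADAMTS16 and ADAMTS17 are the least certain, with an estimated 5 and 2 reads in EBC-CR2. The plot of levels by library shows all 24 genes. At least 2-fold lower in all 3 were MMP24 and ADAMTS15, where the share for all genes was 5.5%. MMP19 and TIMP1 stayed under 2-fold in every line. Over the 16 genes whose mean met the floor, the median log2 difference was 0.96 for EBC-CR1, 0.90 for EBC-CR2 and 1.18 for EBC-CR3, beside -0.05, -0.06 and -0.08 over all genes chosen in that way. By family, the medians were 2.80, 2.88 and 3.19 for 5 ADAMTS genes, 0.96, 0.94 and 0.88 for 8 MMP genes and -0.56, -0.22 and -0.10 for 3 TIMP genes.

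RefSeq promoters of build GRCh38.p14, running from 250 bases before the start of a gene to 50 after it, were matched by symbol for 13 of the 24 genes. Those of 5 genes are shown as the 250 bases before the start, 5′ to 3′ on the gene's strand, because MMP7, MMP15 and ADAMTS6 stood above EBC-1 in all 3 resistant lines, MMP24 below it in all 3, and TIMP3 far below it in EBC-CR1 and EBC-CR3. The stretches are chr11:102530748-102530997 on the minus strand for MMP7, chr16:58025504-58025753 on the plus strand for MMP15, chr5:65481921-65482170 on the minus strand for ADAMTS6, chr20:35226440-35226689 on the plus strand for MMP24 and chr22:32801455-32801704 on the plus strand for TIMP3. Capitals mark matches on either strand to the AP-1 motif TGANTCA, the PEA3 motif AGGAAG and the TATA box TATAAA.
MMP7: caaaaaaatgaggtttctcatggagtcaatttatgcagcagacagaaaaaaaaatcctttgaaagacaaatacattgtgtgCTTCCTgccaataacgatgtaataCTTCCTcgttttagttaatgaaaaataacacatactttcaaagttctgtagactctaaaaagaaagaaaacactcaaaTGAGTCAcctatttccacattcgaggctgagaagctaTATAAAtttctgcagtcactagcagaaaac
MMP15: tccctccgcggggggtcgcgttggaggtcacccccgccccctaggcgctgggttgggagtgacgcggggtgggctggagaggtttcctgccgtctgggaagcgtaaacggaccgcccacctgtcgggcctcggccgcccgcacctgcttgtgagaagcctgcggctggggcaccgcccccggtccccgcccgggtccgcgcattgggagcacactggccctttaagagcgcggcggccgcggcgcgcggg
ADAMTS6: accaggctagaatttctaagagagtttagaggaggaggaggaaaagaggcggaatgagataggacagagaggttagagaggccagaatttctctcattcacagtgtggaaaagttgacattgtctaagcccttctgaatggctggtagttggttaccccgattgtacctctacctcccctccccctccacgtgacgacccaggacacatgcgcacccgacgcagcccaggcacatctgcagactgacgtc
MMP24: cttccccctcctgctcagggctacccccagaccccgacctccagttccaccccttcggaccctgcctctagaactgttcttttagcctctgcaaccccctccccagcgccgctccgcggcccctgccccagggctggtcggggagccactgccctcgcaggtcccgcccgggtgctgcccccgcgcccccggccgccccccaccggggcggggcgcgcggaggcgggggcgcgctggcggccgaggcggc
TIMP3: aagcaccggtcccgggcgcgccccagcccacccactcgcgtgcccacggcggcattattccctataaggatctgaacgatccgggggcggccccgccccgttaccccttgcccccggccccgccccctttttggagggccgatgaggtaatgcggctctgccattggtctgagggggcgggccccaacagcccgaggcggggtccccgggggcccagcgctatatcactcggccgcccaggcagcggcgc
MMP7 held 4 matches, an AP-1 match beginning 67 bases before the start, a TATA box 30 bases before it and PEA3 matches at 169 and 145 bases. None of the motifs was found in these letters for MMP15, ADAMTS6, MMP24 or TIMP3. ADAMTS13 and ADAMTS17, also above EBC-1 in all 3 resistant lines, had matched promoters that are not shown. That of ADAMTS13 held a PEA3 match beginning 62 bases before the start, and that of ADAMTS17 held no match. The stretch of MMP7 was 33.6% G and C, and those of MMP15, ADAMTS6, MMP24 and TIMP3 were 74.8%, 52.4%, 77.6% and 72.4%. In the 300-base windows, AP-1 matches occurred in 1 of the 13 (7.69%) and in 7.71% of 35116 promoters, PEA3 in 30.8% and 33.6%, and the TATA box in 15.4% and 11.5%, so the shares lay near those of all promoters. A match is a description of the letters and not a binding site.

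Among the membrane-type enzymes, MMP15, which sits in the plasma membrane and cleaves matrix at the cell surface, was much higher in every resistant line. Its log2 levels were 9.79 for EBC-CR1, 9.41 for EBC-CR2 and 9.58 for EBC-CR3, against 6.70 in EBC-1. The resistant lines lay within 0.38 of one another and all above EBC-1, at 8.54-fold, 6.56-fold and 7.38-fold on the log2(x + 1) scale. The 95% counting interval of the log2 ratio of units, which covers counting error only, ran from 2.83 to 3.40, from 2.45 to 3.02 and from 2.63 to 3.19. MMP15 had the lowest adjusted p of the 24 genes when the 3 lines were taken as replicates, 0.120 in limma with Benjamini-Hochberg adjustment, which misses the threshold.

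MMP14, the membrane-type enzyme that cleaves collagen and activates the MMP2 precursor, was abundant in every library and followed no common direction. Its levels were 10.05, 10.83 and 9.26 in lines EBC-CR1, EBC-CR2 and EBC-CR3, against 9.57 in EBC-1. EBC-CR2 was 2.39-fold above EBC-1, EBC-CR1 was slightly above it and EBC-CR3 slightly below, with log2 differences of 0.48 and -0.32. MMP2, the gelatinase that MMP14 activates together with TIMP2, was listed at 0 in EBC-CR1, EBC-CR2 and EBC-1 and was at 1.81, about 3 reads, in EBC-CR3.

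MMP24, a membrane-type enzyme known from neural tissue, was the MMP that was lower in all 3 lines. It was at 7.17, 7.69 and 7.50 in the resistant lines, against 8.74 in EBC-1. That is 2.97-fold, 2.07-fold and 2.36-fold lower, with counting intervals from -1.87 to -1.29, from -1.31 to -0.80 and from -1.49 to -1.01. MMP17, which is tied to the membrane by a lipid anchor, was at 5.88 for EBC-CR1, 4.41 for EBC-CR2 and 5.46 for EBC-CR3, against 4.44 in EBC-1, so EBC-CR2 stayed at the parental level. MMP16 had a listing of 0 in EBC-CR1 and EBC-CR2 and was at 3.61 in EBC-CR3, against 2.95 in EBC-1, about 13 and 8 reads. MMP25 stayed under the floor in all libraries, with 3, 8 and 7 estimated reads in the resistant lines and 3 in EBC-1.

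The secreted MMPs at the floor were few. MMP9, the gelatinase that degrades basement membrane collagen, was at 7.57, 6.29 and 7.85 in lines EBC-CR1, EBC-CR2 and EBC-CR3, against 5.55 in EBC-1. EBC-CR1 and EBC-CR3 stood 4.06-fold and 4.94-fold above EBC-1, and EBC-CR2 1.68-fold, with a counting interval from 0.21 to 1.29. White blood cells also make MMP9, and their part in its level was not tested. Of the 9 leukocyte markers, all under the floor, CD3E and TYROBP were listed at 0 in all 4 libraries, and the highest was CD14, at 2.39, 3.13 and 0 in the resistant lines and 2.86 in EBC-1. MMP7, the matrilysin made by epithelial cells, was at 4.60, 4.36 and 5.37 in the resistant lines, against 2.64 in EBC-1, which is 20, 17 and 45 estimated reads against 6. All 3 resistant lines were above EBC-1, and the counting intervals began at 0.84, 0.55 and 1.77.

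MMP28, an epithelial enzyme called epilysin, reached the floor in 1 of the 4 libraries. It was at 6.48 in EBC-CR2, an estimated 76 reads, and at 0.58 in EBC-CR1 and 1.46 in EBC-CR3, or 1 and 2 reads, and was listed at 0 in EBC-1. MMP11, a stromelysin, was at 3.46, 4.41 and 3.91 in the resistant lines, against 3.29 in EBC-1, and only EBC-CR2 passed 2-fold. MMP19 was at 6.84, 7.10 and 7.09 in the resistant lines, against 6.35 in EBC-1, slightly above the parent in each line. Its span overlaps TMEM198B, which was at 7.26, 7.52 and 7.53 in the resistant lines, against 6.81 in EBC-1, and the strand handling of the counts is not given, so reads of this pair cannot be told apart. MMP23A is annotated by RefSeq as a transcribed pseudogene and resembles MMP23B, so its level is uncertain; it was at 0.58 in EBC-CR1 and at 3.73 in EBC-CR2, with a listing of 0 in EBC-CR3, against 2.09 in EBC-1.

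The collagenases were close to silent at this depth. MMP1 was listed at 0 in all 4 libraries. MMP8 was listed at 0 in all but EBC-CR3, where it was at 2.75, about 7 reads, and MMP13 in all but EBC-CR2, where it was at 2.00, about 3 reads. In RefSeq, MMP7, MMP20, MMP27, MMP8, MMP10, MMP1, MMP3, MMP12 and MMP13 follow one another on chromosome 11, and of these 9 genes only MMP7 reached the floor. The other 8 stayed at 2.91 or below, and MMP27, MMP1 and MMP12 were listed at 0 throughout. A listing at 0 allows up to about 3 reads, which is 2.70 to 3.48 units in the resistant lines and 2.52 units in EBC-1.

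Of 8 listed neighbours on either side of this row, 7 reached the floor and DDI1 was listed at 0 in all 4 libraries. BIRC3, an apoptosis inhibitor gene on the MMP7 side, was at 12.01, 11.20 and 12.03 in lines EBC-CR1, EBC-CR2 and EBC-CR3, against 8.35 in EBC-1. On the MMP13 side, DYNC2H1, a dynein gene, was at 7.53, 7.01 and 8.36 in the resistant lines, against 6.27 in EBC-1. Of the 7 at the floor, 3, 2 and 3 were at least 2-fold higher in lines EBC-CR1, EBC-CR2 and EBC-CR3, where 13.8%, 16.8% and 16.2% of all genes were, and none was lower, where 14.5%, 18.6% and 16.6% were. By limma 0 of them passed Benjamini-Hochberg adjustment and 1, BIRC3, was higher at an unadjusted p under 0.05, as were 6.38% of all genes. PDGFD, a growth factor gene, was at 5.29 in EBC-CR2, with a listing of 0 in EBC-CR1, EBC-CR3 and EBC-1.

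**Figure D2:**
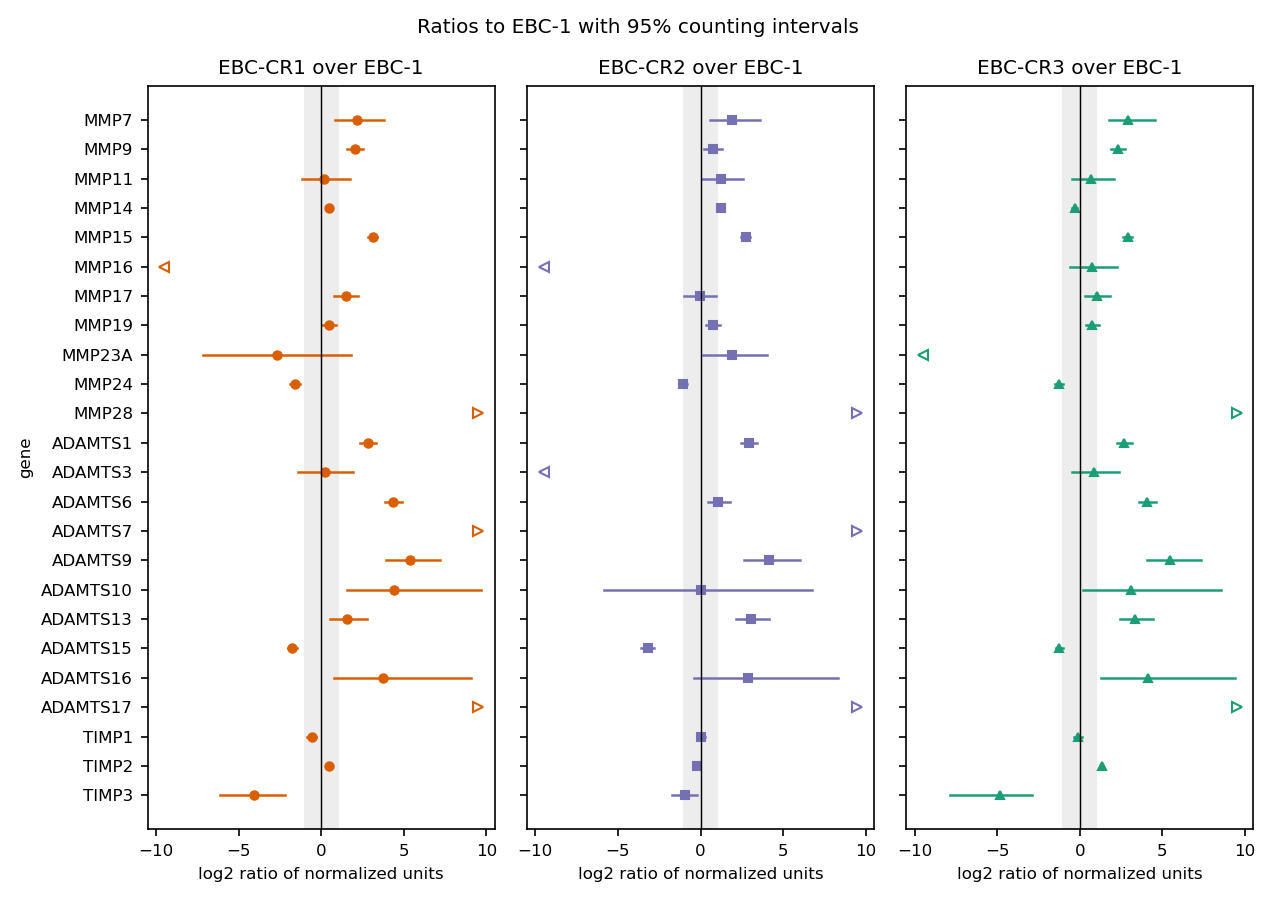
Log2 ratio of normalized units (x axis) of each of the 24 genes (y axis) in lines EBC-CR1, EBC-CR2 and EBC-CR3 over EBC-1, with 95% counting intervals as lines and the range under 2-fold shaded. Open triangles at the edges mark genes listed at 0 in 1 of the libraries, for which no ratio is given; MMP15 and ADAMTS1 have short intervals right of the shading in all 3 panels.

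The plot of ratios shows that genes with many reads, such as MMP14, MMP15 and TIMP2, have narrow intervals and those with few, such as ADAMTS10 and ADAMTS16, wide ones. Among the ADAMTS enzymes that cut the proteoglycans versican and aggrecan, ADAMTS1 and ADAMTS9 were higher and ADAMTS15 was lower in every resistant line. ADAMTS1 was at 8.13, 8.22 and 7.99 in lines EBC-CR1, EBC-CR2 and EBC-CR3, against 5.33 in EBC-1. The lines lay within 0.23 of one another and were 6.96-fold, 7.39-fold and 6.31-fold above EBC-1. ADAMTS9 was at 7.06, 5.85 and 7.19 in the resistant lines, against 2.09 in EBC-1, an estimated 114, 49 and 161 reads against 4. Its counting intervals began at 3.91, 2.63 and 4.05, so all lines were above EBC-1 beyond counting error. The antisense gene ADAMTS9-AS1 overlaps it and was at 4.27, 2.91 and 5.60 in the resistant lines, against 1.91 in EBC-1, and reads of this pair cannot be told apart without the strand handling.

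ADAMTS15 was the ADAMTS gene with the highest level in EBC-1. It was at 7.50, 6.06 and 8.0 in the resistant lines, against 9.24 in EBC-1. That is 3.34-fold lower in EBC-CR1, 9.08-fold in EBC-CR2 and 2.36-fold in EBC-CR3. EBC-CR2 was also below EBC-CR1, with a log2 difference of -1.44. ADAMTS4 and ADAMTS5, the main aggrecanases of cartilage, were listed at 0 in all 4 libraries. ADAMTS8 and ADAMTS20 stayed at 2.00 or below.

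ADAMTS6, whose protein acts on fibrillin microfibrils, differed among the resistant lines. EBC-CR1 and EBC-CR3 held 9.25 and 8.97, whereas EBC-CR2 held 6.0, against 4.94 in EBC-1. EBC-CR1 and EBC-CR3 were 19.8-fold and 16.3-fold above EBC-1 and EBC-CR2 2.08-fold, with a counting interval from 0.47 to 1.77 in EBC-CR2. ADAMTS10, its closest relative, was at 4.09, 0.81 and 2.91 in the resistant lines, against 0.81 in EBC-1, or 14, 1 and 8 estimated reads against 1. ADAMTS17, also linked to fibrillin, was at 4.81, 1.46 and 5.21 and was listed at 0 in EBC-1, or 23, 2 and 40 reads against 0. In all 3 genes EBC-CR2 was the lowest of the resistant lines. For ADAMTS10 its difference from EBC-CR3 lay within counting error, with an interval from -0.26 to 8.11 for EBC-CR3 over EBC-CR2. Of the other ADAMTS genes at the floor, ADAMTS3, ADAMTS9, ADAMTS15 and ADAMTS16 were also lowest in EBC-CR2, and ADAMTS1, ADAMTS7 and ADAMTS13 were not.

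ADAMTS13, the protease that cleaves von Willebrand factor, was at 4.86, 6.29 and 6.58 in lines EBC-CR1, EBC-CR2 and EBC-CR3, against 3.39 in EBC-1. All resistant lines were above EBC-1, at 2.76-fold, 7.48-fold and 9.12-fold. It overlaps REXO4, which was far more abundant and nearly level, at 12.28, 12.31 and 12.35 in the resistant lines, against 12.04 in EBC-1, and the part of its reads in ADAMTS13 was not tested. ADAMTS16 was at 3.46, 2.70 and 3.83 in the resistant lines, against 0.81 in EBC-1, or 9, 5 and 15 reads against 1, and the counting interval of EBC-CR2 ran from -0.38 to 8.35. ADAMTS7, which cleaves a cartilage matrix protein, was at 2.70 in EBC-CR1 and at 4.07 in EBC-CR2, with a listing of 0 in EBC-CR3 and EBC-1. Of the procollagen-processing enzymes, ADAMTS2 and ADAMTS14 were listed at 0 throughout, and ADAMTS3 was at 3.17 in EBC-CR1 and at 3.73 in EBC-CR3, and was listed at 0 in EBC-CR2, against 2.95 in EBC-1.

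The inhibitors had no direction in common. TIMP2 had the highest level of the 24 genes in every library, at 11.81 for EBC-CR1, 11.10 for EBC-CR2 and 12.66 for EBC-CR3, against 11.33 in EBC-1. Only EBC-CR3 passed 2-fold, at 2.52-fold, and EBC-CR2 was slightly below EBC-1, with a log2 difference of -0.22. TIMP1 was at 7.63, 8.24 and 8.09 in the resistant lines, against 8.19 in EBC-1, with counting intervals that spanned 0 in EBC-CR2 and EBC-CR3 and ran from -0.83 to -0.29 in EBC-CR1. TIMP1 overlaps SYN1, which was at 5.81, 5.44 and 4.73 in the resistant lines, against 6.13 in EBC-1, and the same limit holds for this pair.

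TIMP3, which binds to the matrix and inhibits ADAMTS enzymes and the sheddase ADAM17 as well as MMPs, was near the limit of detection in EBC-CR1 and EBC-CR3. It was at 2.00, 4.73 and 1.46 in lines EBC-CR1, EBC-CR2 and EBC-CR3, against 5.66 in EBC-1, or 3, 22 and 2 estimated reads against 59. EBC-CR2 thus held an intermediate level. The counting intervals of the log2 ratio ran from -6.15 to -2.21 for EBC-CR1, from -1.74 to -0.24 for EBC-CR2 and from -7.86 to -2.87 for EBC-CR3. TIMP4 was listed at 0 in all 4 libraries. Because these are bulk cultures, fewer cells with a transcript and less of it per cell cannot be told apart.

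Summed over all listed genes of a family, MMP values came to 2491, 3098 and 2054 units in lines EBC-CR1, EBC-CR2 and EBC-CR3, against 1467 in EBC-1, or 1.70, 2.11 and 1.40 times the parental sum. MMP14 gave the largest part in EBC-CR1, EBC-CR2 and EBC-1 (42.7%, 58.7% and 51.9%), and MMP15 in EBC-CR3 (37.2%). The ADAMTS sum was 1301, 583 and 1325 units in the resistant lines, against 696 in EBC-1. Its leading gene was ADAMTS6 in EBC-CR1 and EBC-CR3, ADAMTS1 in EBC-CR2 and ADAMTS15 in EBC-1, where ADAMTS15 made 86.6% of it. The TIMP sum was 3792, 2523 and 6754 units in the resistant lines, against 2907 in EBC-1, with TIMP2 at 87.1% or more in every library. These sums, of 3′-end values, weigh each gene by its reads.

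**Figure D3:**
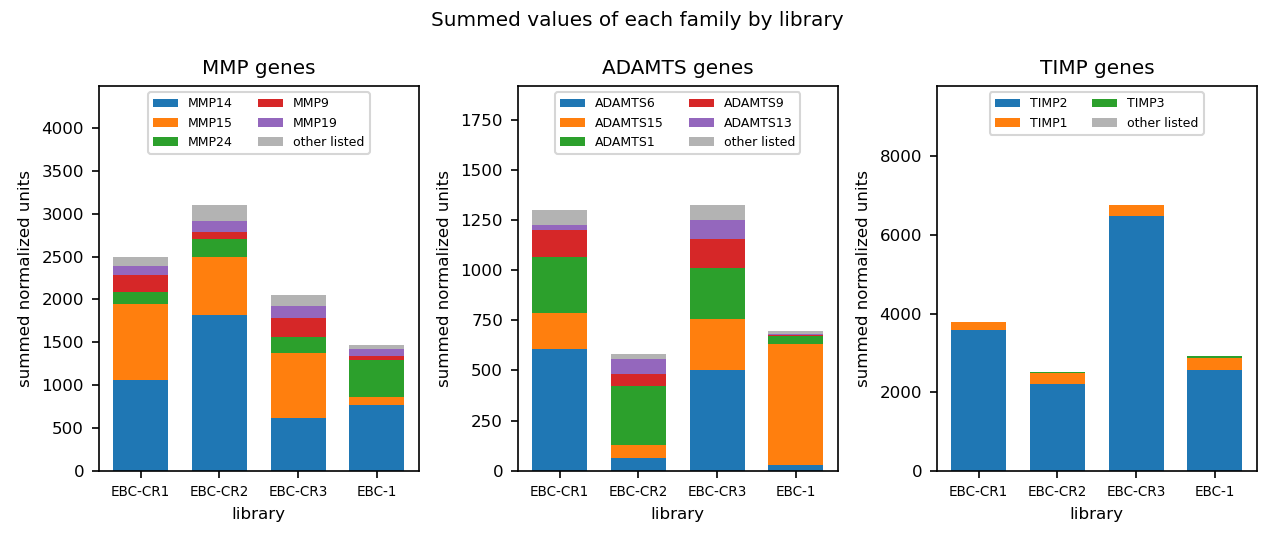
Summed normalized units (y axis, linear from 0) of the 24 MMP, 19 ADAMTS and 4 TIMP genes listed, stacked by gene, in EBC-CR1, EBC-CR2, EBC-CR3 and EBC-1, with 1 library per bar. The EBC-1 bar of the ADAMTS panel is mostly ADAMTS15, whereas ADAMTS6 leads in EBC-CR1 and EBC-CR3 and ADAMTS1 in EBC-CR2.

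The resistant lines were also set against one another. EBC-CR3 and EBC-CR1 differed at least 2-fold in 4 of the 24 genes, ADAMTS13 and MMP16 higher and ADAMTS7 and ADAMTS10 lower in EBC-CR3, which at 16.7% is near the 16.2% of all genes at the floor (8.25% higher, 7.96% lower). EBC-CR2 and EBC-CR1 differed in 13 (54.2%, against 32.7%), and EBC-CR3 and EBC-CR2 in 17 (70.8%, against 28.1%). A gene can meet the floor only through the line where it is high, as MMP28 did through EBC-CR2, so these counts are a description. Of the 16 genes whose mean met the floor, EBC-CR3 and EBC-CR1 differed in 1, EBC-CR2 and EBC-CR1 in 7, and EBC-CR3 and EBC-CR2 in 9. Shares of all genes were not computed for the pairs with that floor. In EBC-CR2 against EBC-CR1, 6 of 10 ADAMTS genes were lower and 2 higher, beside 16.8% and 15.9% of all genes at the floor. In EBC-CR3 against EBC-CR2, 12 genes were higher, namely 7 ADAMTS genes with MMP7, MMP9, MMP16, MMP17 and TIMP2. The 5 lower genes were MMP14, MMP23A, MMP28, ADAMTS7 and TIMP3. Of all genes, 14.6% were higher and 13.6% lower. The 7 ADAMTS genes were led by ADAMTS17, ADAMTS3 and ADAMTS6, with log2 differences of 3.75, 3.73 and 2.97. In EBC-CR2, ADAMTS3, ADAMTS10 and ADAMTS17 had an estimated 0, 1 and 2 reads, so the sizes of their differences in both pairs are uncertain. Among the genes called, the counting interval of ADAMTS7 spanned 0 in EBC-CR2 against EBC-CR1, from -0.08 to 3.30. In EBC-CR3 against EBC-CR2 those of ADAMTS16 and ADAMTS10 did, from -0.31 to 3.04 and from -0.26 to 8.11. That of ADAMTS10 also did in EBC-CR3 against EBC-CR1, from -2.64 to 0.18. These pairs share libraries, and there is no replicate check.

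**Figure D4:**
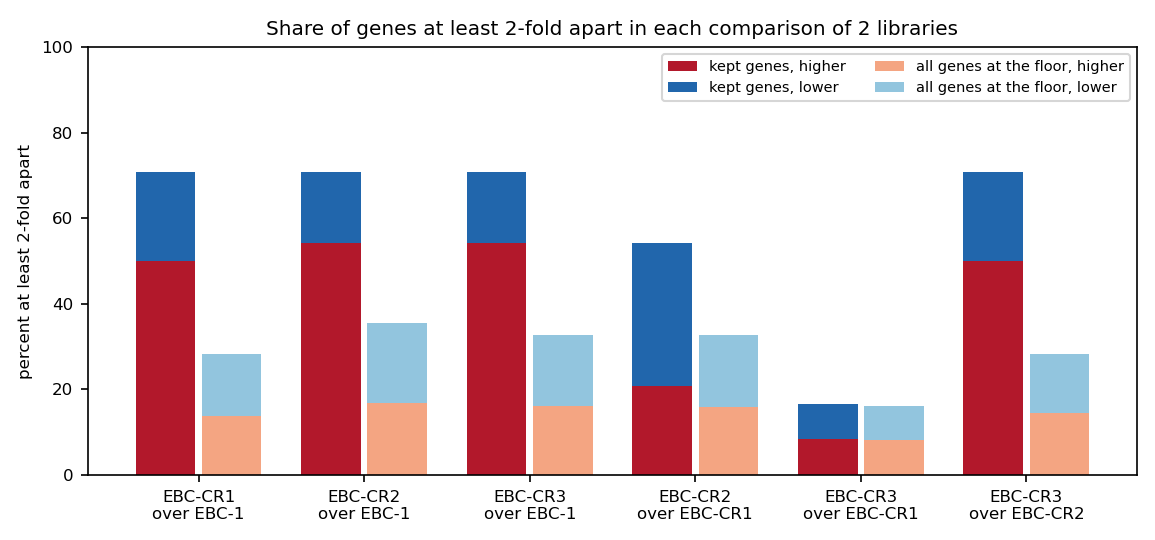
Percent of genes at least 2-fold apart (y axis, from 0) in each comparison of 2 libraries, higher (red) and lower (blue) stacked, for the 24 genes kept at the floor (saturated colours, left bar) and all 14892 genes at the floor (pale, right bar). The saturated bar is about level with the pale one, at 16.7% and 16.2%, for EBC-CR3 over EBC-CR1, and stands above it in the other 5 comparisons. A gene can meet the floor only through the line where it is high, so the bars are a description.

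When the 3 lines were taken as replicates of a resistant phenotype, none of the 24 genes passed limma with Benjamini-Hochberg adjustment over all 14892 genes, where 0.168% of genes were called higher and 0.00672% lower. At an unadjusted p under 0.05 there were 5 higher, namely MMP7, MMP15, ADAMTS1, ADAMTS9 and ADAMTS13, and 1 lower, MMP24, beside 6.38% and 4.13% of all genes. The log2 fold was 2.90 ± 0.37 for MMP15 (SE, adjusted p = 0.120), 2.78 ± 0.42 for ADAMTS1 (adjusted p = 0.155) and 4.61 ± 0.78 for ADAMTS9 (adjusted p = 0.187). For MMP24 it was -1.29 ± 0.44 (limma adjusted p = 0.437), for ADAMTS15 -2.05 ± 0.84 (adjusted p = 0.491) and for TIMP3 -2.93 ± 1.54 (adjusted p = 0.574). The resistant lines spread widely for ADAMTS6, whose fold was 3.13 ± 1.39 (limma adjusted p = 0.525), and for MMP28, whose fold was 2.84 ± 2.59 (adjusted p = 0.738). The 2 residual degrees of freedom come from the spread among the resistant lines, and the lone EBC-1 library is taken to vary as much. Limma moderates this spread toward that of the other genes, which gives 4.97 degrees of freedom in total, so the SEs and p-values also draw on those genes.

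Other genes of the pathway were taken from lists of related proteins, and none of their members passed limma with Benjamini-Hochberg adjustment. Of 9 ADAM genes at the floor, which encode relatives anchored in the membrane, 3, 2 and 4 were at least 2-fold higher in lines EBC-CR1, EBC-CR2 and EBC-CR3 and 2, 1 and 1 lower, beside 13.8%, 16.8% and 16.2% of all genes higher and 14.5%, 18.6% and 16.6% lower. At an unadjusted p under 0.05 in limma there were 3 higher, ADAM10, ADAM17 and ADAM28, and 1 lower, ADAM19, beside 6.38% and 4.13% of all genes. ADAM19 was at 4.67, 7.32 and 5.51 in the resistant lines, against 9.74 in EBC-1, and ADAM28 at 6.95, 8.17 and 7.55 in the resistant lines, against 4.54 in EBC-1. ADAM10, a main sheddase of cell-surface proteins, was at 10.05, 9.77 and 9.93 in the resistant lines, against 8.87 in EBC-1, and ADAM12 was listed at 0 in EBC-CR1 and was at 3.61 in EBC-CR2 and 5.33 in EBC-CR3, against 3.93 in EBC-1. ADAM19 was thus below EBC-1 and ADAM28 above it in all lines, while ADAM12 followed no common direction.

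Of 12 genes for activators, inducers and other inhibitors at the floor, 3, 3 and 5 were higher and 3, 2 and 2 lower in the same lines, and the shares of all genes are those just given for the ADAM genes (13.8% to 16.8% higher, 14.5% to 18.6% lower). At an unadjusted p under 0.05 in limma there were 2 higher, RECK and SPOCK2, and 2 lower, SPOCK1 and SPOCK3, again beside 6.38% and 4.13%. RECK, a membrane-anchored inhibitor of MMPs, was at 4.67, 3.13 and 4.38 in the resistant lines, against 0.81 in EBC-1. The testican genes SPOCK1 and SPOCK3 went the other way from SPOCK2: SPOCK1 was at 2.39 in EBC-CR1 and at 0.81 in EBC-CR3, and was listed at 0 in EBC-CR2, against 6.36 in EBC-1, and SPOCK2 was at 7.79, 5.02 and 7.85 in the resistant lines, against 3.17 in EBC-1. SPOCK3 was at 0.81 in EBC-CR2, with a listing of 0 in EBC-CR1 and EBC-CR3, against 6.42 in EBC-1. Of 4 ADAMTS-like genes at the floor, 0, 2 and 1 were higher and 1, 1 and 2 lower, against the same shares of all genes, and none had an unadjusted p under 0.05 in limma. The highest level among them was 5.27, and ADAMTSL4 was at 2.95 in EBC-CR1 and at 3.46 in EBC-CR2, with a listing of 0 in EBC-CR3, against 2.46 in EBC-1.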

How the data were processed

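Per the labels' protocols, total RNA of 4 cultures gave 1 QuantSeq 3′-end library each. Per the submitters' processing notes, Bowtie2, edgeR and the build hg19 were used, with no role or version named. Gene annotation, filters and strand assignment were not given in the sources used here. What the authors deposited are log2 values, 1 per symbol and library. After undoing log2(x + 1), 100% of values below 500 units lay within 0.0025 of multiples of 0.25 and the sorted libraries differed by at most 0.81, so quantile normalization of counts was inferred. Differences in total RNA are then invisible, and no count model was used.

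What 1 read is worth was estimated from the 30 lowest distinct values of each library, at 0.900 to 1.16 units in the resistant lines and 0.839 in EBC-1. Counting intervals of ratios are exact binomial, cover counting error only, and were made from these reads. Lines were compared by differences of log2(x + 1), which understate changes of low genes. As a phenotype they were compared by limma 3.58.1 (trended variance, R 4.3.3) over all genes at the floor. The limma fit was also run on simulated data, with the same spread set in every library. The rest was done with Python 3.11.15 (matplotlib 3.10.9, scipy 1.17.1, pandas 2.3.3, numpy 2.4.6). P-values rest on the spread between the 3 lines, moderated by limma toward that of the other genes in the fit, and hold no spread of EBC-1. Sequences are from RefSeq.

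The genes, lists and tests were chosen with earlier results of these data known. Values in full were given for genes at least 4-fold from EBC-1 in any line, the TIMPs and the 5 highest genes, and up to 4 genes of other lists. Alternatives were a pseudocount of 5, no floor, a floor of 50 units, median centring, limma without a trend and leaving out each line; a floor on the mean and a demand on the counting interval were added after seeing the data.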

Additional observations from a re-analysis of the deposited data

Results flagged for a closer look

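MMP23A was the one gene of the 24 that was at least 2-fold higher than EBC-1 in one resistant line and at least 2-fold lower in another. Its log2 difference from EBC-1 was -1.50 for EBC-CR1, 1.64 for EBC-CR2 and -2.09 for EBC-CR3. The difference between the lines was not tested, since each has 1 library. The values rest on an estimated 1, 11 and 0 reads in lines EBC-CR1, EBC-CR2 and EBC-CR3 and 4 in EBC-1. Counting intervals of the log2 ratio of units ran from -7.15 to 1.81 for EBC-CR1 and from 0.16 to 4.03 for EBC-CR2, and reached up to 0.70 for EBC-CR3. Both lower values thus lay within counting error.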

How the results depend on the processing

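With a pseudocount of 5, the genes at least 2-fold higher in all 3 lines numbered 5, without ADAMTS6, ADAMTS16 and ADAMTS17; asking that every counting interval exclude 0 left 6, without ADAMTS16 and ADAMTS17. Of 14 genes past a floor of 50 units, 7, 7 and 9 were higher and 2, 2 and 2 lower in lines EBC-CR1, EBC-CR2 and EBC-CR3, and 5 were higher in all 3 lines; EBC-CR2 and EBC-CR1 then differed in 7, EBC-CR3 and EBC-CR1 in 1, and EBC-CR3 and EBC-CR2 in 8. With the floor set on the mean of the 4 libraries, 8, 8 and 9 of 16 genes were higher and 3, 2 and 3 lower. Of all genes chosen in that way, 11.8%, 15.2% and 14.1% were higher and 11.6%, 16.4% and 14.2% lower. The pairs differed in 7, 1 and 9. Fewer genes were tested with this floor and with that of 50 units. Shares of all genes were not computed for the pairs here or for the 2-fold counts of the other settings, so those counts are a description. Over the 24 genes at the floor in any library, the median log2 differences were 1.01, 1.09 and 1.18. With no floor, the pairs EBC-CR3 against EBC-CR1 and EBC-CR3 against EBC-CR2 differed in 10 and 26 of 47 genes, and limma called 1, MMP21, with 1 read in EBC-1 and 0 in every other library, so that its spread was 0. MMP24 and ADAMTS15 remained at least 2-fold lower in all 3 lines in all of these settings. Leaving out 1 line in turn, 9 to 11 genes were higher and 2 to 4 lower in both remaining lines (4 without EBC-CR2), limma called 0 of the 24, and the log2 fold turned for ADAMTS3 (-1.37 to 0.49, above 0 without EBC-CR2) and MMP23A (-1.79 to 0.069, above 0 without EBC-CR3). Over all genes limma called 26, against 54 with the floor of 50 units, 428 with none, and 0 without a trend or without any 1 line. No paired analysis was possible because 1 EBC-1 library serves all 3 resistant lines. Depth limits the genes with few reads: below about 3 reads a gene cannot be told from one listed at 0.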
